A study of Ictidomys tridecemlineatus with 31 samples.

Results

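The SLC25 family, carriers most of which move small metabolites across the inner membrane of the mitochondrion, was followed by its RNA in kidneys of 13-lined ground squirrels (Ictidomys tridecemlineatus) in 6 states of the hibernation year. Members were the genes whose symbol in the authors' table begins with SLC25A and a number, 1 entry for each symbol, without regard to how they behaved. This gave 40 carriers of the 12863 genes in the table. Family members under other symbols, such as UCP2, are not among the 40. Of the 48 family symbols sought, 8 were not among the genes analysed here (SLC25A2, SLC25A18, SLC25A27, SLC25A31, SLC25A41, SLC25A43, SLC25A47, and SLC25A53). SLC25A51 has 2 entries in the table, of which the more abundant was used. SLC25A52 was named by a sequence match and is the 1 carrier not named by the authors' reference annotation. SLC25A51 and SLC25A52 are known as near-identical copies, though their squirrel sequences were not compared here. Reads of these 2 genes may not separate, so their values are uncertain.

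RNA-Seq was done on whole pieces of kidney, 1 animal to a library, with polyadenylated RNA. The groups were summer active (SA, 5 animals), interbout aroused (IBA, 5 animals, which had rewarmed between bouts of torpor), entrance (Ent, 5 animals cooling into torpor), EAr (5 animals beginning to rewarm), LAr (6 animals later in rewarming), and spring dark (SpD, 5 animals active again after hibernation while kept in the dark). SA and SpD are the active groups and the other 4 are the hibernation groups, all from animals with implanted temperature devices, with 17 females and 14 males and both sexes in each group. No drug or genetic change is named in the labels. Experiment 1 (9 animals, 3 each of IBA, Ent, and SpD) and experiment 2 (the other 22 animals) used different library kits, and K113 (LAr) and K137 (SA), which the authors left out of their differential expression tests, are given apart, so that tests rest on 29 animals with 4 in SA and 5 in each other group.

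Mitochondria are closed to most metabolites, and most SLC25 carriers open the inner membrane to a few of them, usually by exchanging a molecule inside for one outside. The family includes the ADP/ATP and phosphate carriers that feed the ATP synthase, the carriers of the malate-aspartate shuttle that bring reducing power in, and carriers of amino acids, citrate, acylcarnitines, glutathione, cofactors, and iron. Proximal tubule cells, which do most of the reabsorption in the kidney, are packed with mitochondria and burn fatty acids, glutamine, and other organic acids. In bulk tissue, fewer cells of a type and less RNA per cell cannot be told apart.

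Each value is a batch-corrected regularized log (rlog) value, a library-size-normalized count on the log2 scale in which scarce genes are drawn toward their mean, so that their differences are understated. A difference of 1 is a doubling on this scale, and values of different genes are not compared as levels, because they are not per length. A gene is called differentially expressed (DE) at q < 0.001, where q is the Benjamini-Hochberg adjusted p of limma, fitted to all 12863 genes with terms for state, sex, and experiment. Pairs are written first minus second, so that IBA/SA is the difference of IBA from SA, and season is the mean of the hibernation groups minus the mean of the active groups. The depth behind each value is unknown, since the table holds no counts.

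The state means of most carriers lay within 0.50 of each other, yet the carriers moved about as much as other genes or more. Their median absolute difference was above that of all genes by season (0.122 against 0.113) and in each pair but IBA/SA (0.169 against 0.179). It was 0.213 against 0.163 in IBA/LAr and 0.200 against 0.122 in SpD/IBA. The 6 state means of a carrier spanned between 0.14 and 1.37, with a median span of 0.32 over the 40 carriers, and 9 carriers spanned more than 0.50. The median residual SD between animals was 0.17 for the carriers and 0.155 for all genes. The lowest state mean was that of IBA in 14 carriers and that of SpD in 10, while the highest was that of SA in 12. LAr was highest in 8 carriers and SpD in 7. Some of the lows in SpD rest on 1 SpD animal, K130. Without K130 the SpD mean of SLC25A10 was 13.91, above the 13.71 of IBA, whereas SLC25A16 stayed lowest in SpD at 9.50. The same tally over all genes is not given here.

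**Figure D1:**
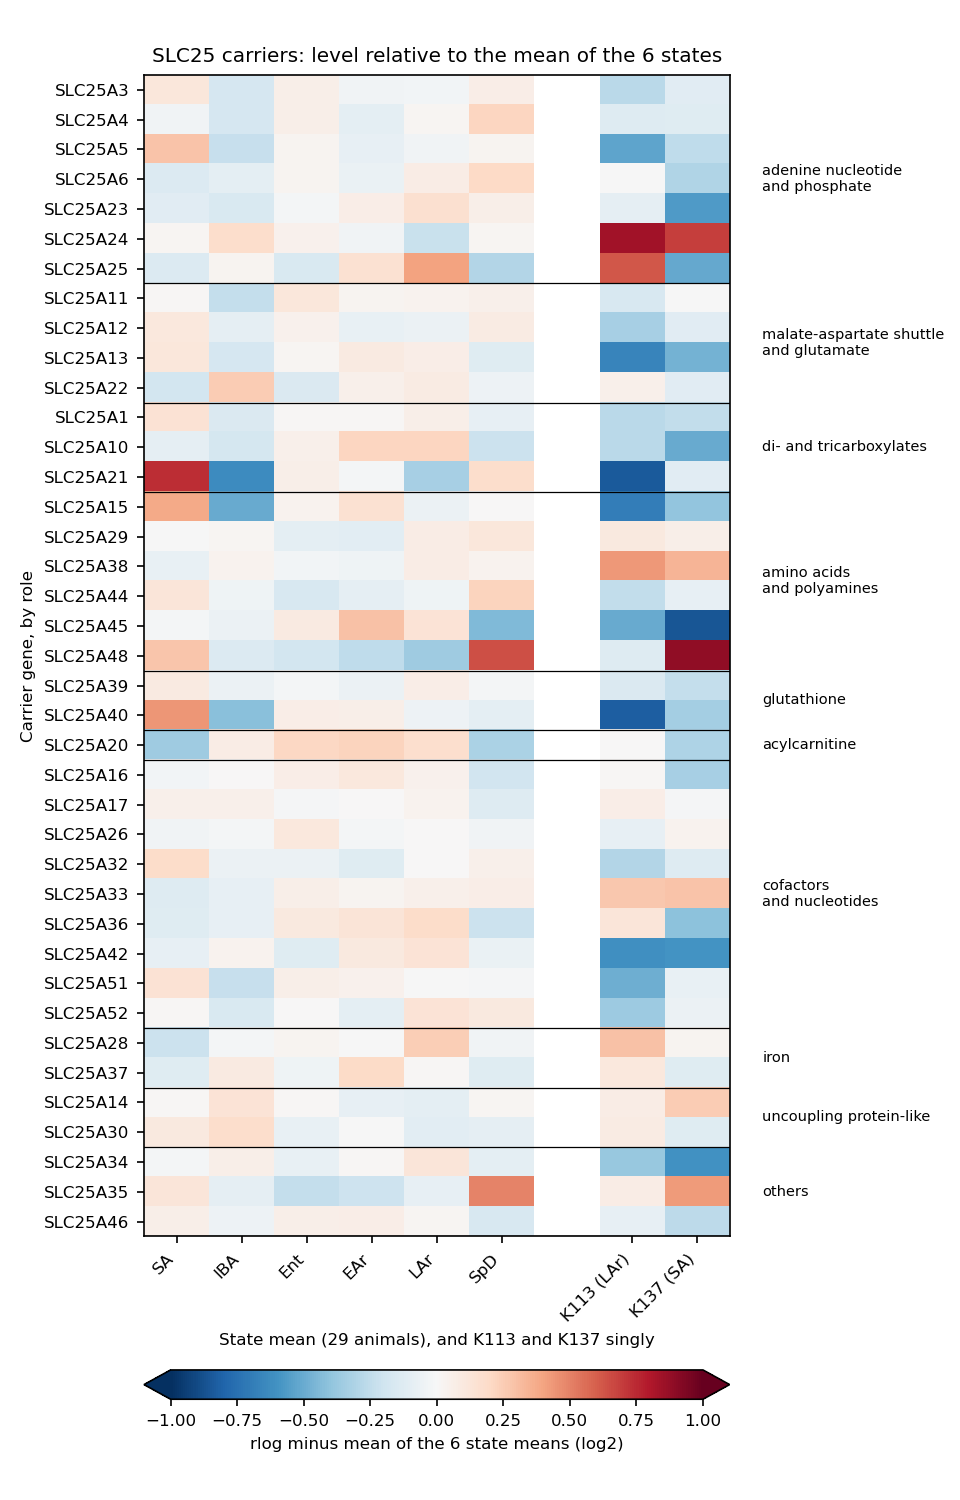
Each row is a carrier (39 of the 40 are drawn), grouped by role, and each colored cell is a state mean minus the mean of the 6 state means of that carrier (log2 units of rlog), with K113 and K137 shown singly at the right. SLC25A21 and SLC25A40 are highest in SA and lowest in IBA, SLC25A48 and SLC25A35 are highest in SpD, and most other rows are pale, since the median span is 0.32.

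Across the 6 states, 6 carriers were DE by the F test of limma (15% of the 40, beside 9.34% of all genes) and 19 passed q < 0.05 (47.5%, beside 46.1% of all genes). Those DE were SLC25A21, SLC25A40, SLC25A44, SLC25A28, SLC25A35, and SLC25A48. By season, 5 carriers were DE (12.5%, beside 9.73% of all genes). SLC25A20 was the 1 that was higher in hibernation (4.43% of all genes were DE in that direction), and SLC25A21, SLC25A35, SLC25A44, and SLC25A48 were the 4 that were lower (5.29% of all genes). At q < 0.05, 14 carriers differed by season (33.4% of all genes did), 5 higher (16.6% of all genes) and 9 lower in hibernation (16.8% of all genes). The median seasonal difference was -0.03 over the 40 carriers and 0.00024 over all genes.

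**Figure D2:**
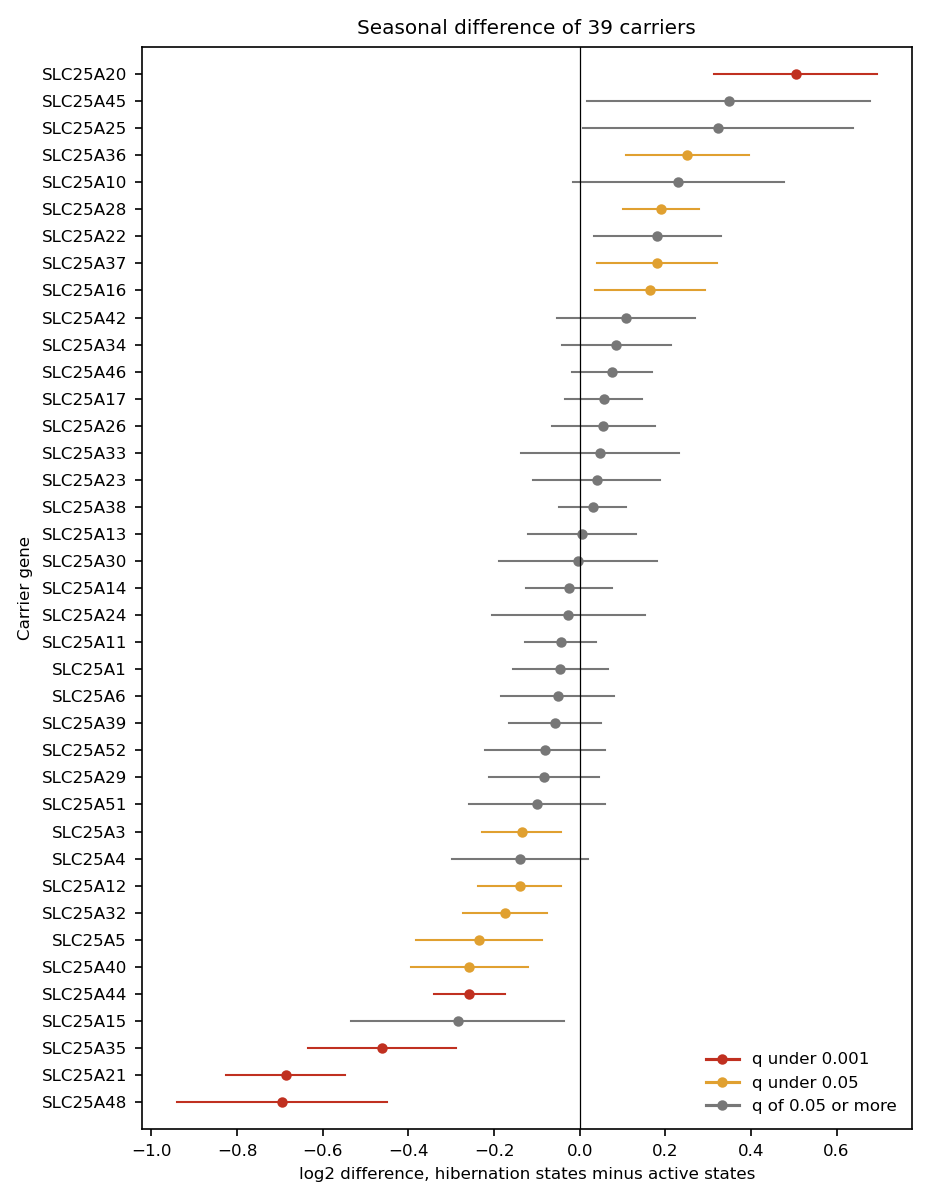
Each point is the seasonal difference of a carrier (39 of the 40 are drawn, log2, mean of IBA, Ent, EAr, and LAr minus mean of SA and SpD) with its 95% confidence interval from limma over 29 animals, colored by q. SLC25A20, at 0.50, stands at the top, and SLC25A48 (-0.70), SLC25A21 (-0.69), and SLC25A35 (-0.46) stand at the bottom.

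Between single states, carriers were DE in 3 pairs, all of which include IBA, and the 4 pairs with IBA were also those with the most DE genes overall. In IBA/SA, 2 carriers were DE, SLC25A21 and SLC25A40, both lower in IBA (3.15% of all genes were DE). At q < 0.05 there were 11 (22.9% of all genes), 10 of them lower (12.5% of all genes) and 1 higher (10.4% of all genes). In Ent/IBA, SLC25A11 and SLC25A21 were DE and higher in Ent (0.746% of all genes were DE), and 5 passed q < 0.05 (13.1% of all genes), 4 higher (5.52% of all genes) and 1 lower (7.61% of all genes). In SpD/IBA, SLC25A21 alone was DE (1.25% of all genes), and at q < 0.05 there were 8 (11.9% of all genes), all higher in SpD (6.48% of all genes, with 5.42% lower). These 3 pairs share the IBA animals, so they are not independent of each other. Whatever their q, 12 carriers had IBA and SA animals that did not overlap (18.8% of all genes). The groups did not overlap in 3 carriers in Ent/IBA (7.74% of all genes) and in 5 in SpD/IBA (6.51% of all genes).

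In IBA/LAr no carrier was DE by limma (1.43% of all genes were). At q < 0.05 there were 9 (18% of all genes), 7 lower in IBA (8.03% of all genes) and 2 higher (9.93% of all genes). Here 11 of the 40 carriers were higher in IBA (27.5%, beside 48.7% of all genes). The median difference was -0.12 for the carriers and -0.0074 for all genes. In SA/SpD none was DE (0.0544% of all genes were), and 5 passed q < 0.05 (10.5% of all genes). Of these, 4 were higher in SA (5.47% of all genes) and 1, SLC25A6, was lower (5.01% of all genes).

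Across the torpor bout and early rewarming no carrier was called. In EAr/Ent none was DE and none passed q < 0.05 (0.132% and 0.257% of all genes). In LAr/EAr the count was again 0 at both thresholds (0.295% and 0.575% of all genes). Between females and males 0 carriers passed either threshold (0.0233% and 0.218% of all genes) and 0 had an unadjusted p under 0.05. In all, 8 carriers (20% of the 40, beside 13.7% of all genes) were DE in some test, 26 (65%, beside 57.8% of all genes) passed q < 0.05 in some test, and 14 passed it in none.

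SLC25A21 carries oxodicarboxylates such as 2-oxoadipate, an intermediate of lysine and tryptophan breakdown. Its values were 9.31, 9.50, 9.51, and 9.60 in SA and 7.91, 8.09, 8.15, 8.20, and 8.20 in IBA. In Ent they were 8.53, 8.70, 8.79, 8.87, and 9.12, and in EAr they were 8.55, 8.61, 8.73, 8.83, and 8.90. In LAr they were 8.15, 8.16, 8.50, 8.58, and 8.66, and in SpD they were 8.49, 8.92, 9.001, 9.01, and 9.14. All SA animals stood above the animals of each other state, the IBA animals lay below every Ent, EAr, and SpD animal, and 2 of the 5 LAr animals lay among the IBA animals.

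This carrier had the lowest q across states of the family (9.1e-08 by limma). It was lower in IBA than in SA by 1.51 (difference -1.51 ± 0.12 SE, 2.84-fold, limma q = 1.3e-07), rose in Ent/IBA by 0.69 ± 0.11 (q = 0.00033), and was higher in SpD than in IBA by 0.80 ± 0.11 (q = 4.5e-05). SpD did not reach the SA values, as SA/SpD was 0.70 ± 0.12 (q = 0.0033). The state means of SA and IBA themselves differed by 1.37, less than the fitted 1.51. The Ent/IBA call was lost when K1, K104, K4, K167, or K8 was left out, with a highest q of 0.0017 without K167, whereas its calls across states, by season, in IBA/SA, and in SpD/IBA held in each of the 29 fits that left out 1 animal. Within experiment 1 alone Ent/IBA was 0.71 and within experiment 2 alone it was 0.67, and SpD/IBA was 0.86 and 0.71.

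The other carriers of citrate and related acids moved less. SLC25A1, the citrate carrier that exports citrate for lipid synthesis, differed by -0.37 ± 0.10 in IBA/SA (limma q = 0.010) and by -0.28 ± 0.09 in IBA/LAr (q = 0.045), the latter lost without any 1 of 22 animals (-0.24, q = 0.16 without K104). SLC25A10, the dicarboxylate carrier, passed q < 0.05 in no test, and its difference farthest from 0 was -0.54 ± 0.21 in IBA/LAr (q = 0.074).

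Of the glutathione carriers, SLC25A40 was DE and SLC25A39, which carries out the same import, was among the 3 carriers that varied least with state. SLC25A40 read 11.57, 11.71, 11.71, and 11.81 in SA and 10.64, 10.70, 10.94, 10.95, and 10.96 in IBA. In Ent the values were 11.11, 11.12, 11.30, 11.41, and 11.67, and in EAr they were 11.22, 11.22, 11.33, 11.40, and 11.40. In LAr they were 11.05, 11.15, 11.20, 11.27, and 11.37, and in SpD they were 10.76, 10.87, 11.34, 11.38, and 11.43. IBA lay wholly below SA, Ent, EAr, and LAr, while SpD was split between 2 animals at IBA values and 3 at Ent values.

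SLC25A40 was lower in IBA than in SA by 1.01 (difference -1.01 ± 0.12, 2.01-fold, limma q = 1.3e-05), and no left-out animal ended this call or the call across states (q = 6.0e-05). The state means of SA and IBA themselves differed by 0.86, less than the fitted difference. With K113 and K137 in the fit, the IBA/SA difference of SLC25A40 was -0.85 and missed the threshold (q = 0.0045), and across states q was then 0.011. Its differences in Ent/IBA (0.48 ± 0.10, q = 0.0046), IBA/LAr (-0.52 ± 0.12, q = 0.0047), and SA/SpD (0.69 ± 0.12, q = 0.0033) passed q < 0.05 but were not DE. Its SpD/IBA difference was 0.52 within experiment 1 and 0.02 within experiment 2, so it was not seen in both. SLC25A39 ran from 11.79 to 12.17 in IBA and from 11.94 to 12.28 in SA and had an F test q of 0.39. In Ent it ran from 11.90 to 12.14, in EAr from 11.91 to 11.998, in LAr from 12.03 to 12.14, and in SpD from 11.71 to 12.20.

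The carriers of the malate-aspartate shuttle hold the oxoglutarate/malate carrier SLC25A11 and the aspartate/glutamate carriers SLC25A12 and SLC25A13. SLC25A11 read 11.87, 11.89, 11.90, 11.91, and 12.07 in IBA, and 12.09, 12.23, 12.35, 12.36, and 12.38 in Ent. It read 12.08, 12.17, 12.19, and 12.28 in SA, and 12.14, 12.14, 12.16, 12.20, and 12.34 in EAr. It read 12.15, 12.16, 12.18, 12.21, and 12.34 in LAr, and 12.09, 12.17, 12.21, 12.30, and 12.31 in SpD. The 5 IBA animals were thus the lowest of the 29, and the other 5 states overlapped.

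SLC25A11 was DE in Ent/IBA, by 0.35 ± 0.06 (1.28-fold, limma q = 0.00099), close to the threshold. The call was lost without any 1 of 24 animals, with a highest q of 0.0048 without K167, and held without K116, K130, K154, K155, or K171. Within experiment 1 the difference was 0.43 and within experiment 2 it was 0.24. Its differences in IBA/SA (-0.28 ± 0.07, q = 0.0081), IBA/LAr (-0.31 ± 0.07, q = 0.0047), and SpD/IBA (0.29 ± 0.06, q = 0.0043) passed q < 0.05. SLC25A13 was also lower in IBA than in SA at that threshold (-0.36 ± 0.11, q = 0.024), but not without K104 (q = 0.077) or K140. SLC25A12 was lower by season (-0.14 ± 0.05, q = 0.024), but not without K139 or K130 (-0.11, q = 0.064 without K130).

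SLC25A22, which imports glutamate with a proton, went the other way. It lay between 9.51 and 9.60 in SA and between 9.88 and 10.12 in IBA, with no overlap (as in 18.8% of all genes). In Ent it lay between 9.11 and 9.97. IBA/SA was 0.47 ± 0.13 (limma q = 0.014) and Ent/IBA was -0.39 ± 0.11 (q = 0.023), which was lost without K1 (-0.35, q = 0.078), K2, K4, or K8. It was the only carrier that was higher in IBA than in SA at q < 0.05, and the only one lower in Ent than in IBA at q < 0.05. In EAr it ran from 9.68 to 9.86, in LAr from 9.58 to 9.95, and in SpD from 9.52 to 9.89.

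The carrier of acylcarnitines, SLC25A20, passes the fatty acids that CPT1 has prepared into the matrix in exchange for free carnitine. It read 10.60, 10.74, 10.81, and 10.83 in SA, and 10.39, 10.52, 10.62, 11.08, and 11.31 in SpD. In IBA the values were 10.97, 11.07, 11.25, 11.26, and 11.31, and in Ent they were 11.08, 11.09, 11.29, 11.35, and 11.74. In EAr they were 11.07, 11.31, 11.32, 11.36, and 11.55, and in LAr they were 11.06, 11.21, 11.28, 11.32, and 11.47. The 4 SA animals and 3 of the 5 SpD animals lay below all 20 hibernation animals, and the other 2 SpD animals, K130 at 11.08 and K9 at 11.31, lay among them.

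By season SLC25A20 was 0.50 ± 0.09 higher in the hibernation groups (1.42-fold, limma q = 0.00021), and no left-out animal ended the call. None of its single pairs passed q < 0.05, with IBA/SA at 0.40 ± 0.17 (q = 0.088). CPT1A, the enzyme on the outer membrane one step before it, was higher by season by 0.49 ± 0.13 (q = 0.0045), and CPT2, the step after it in the matrix, was at -0.0059 (q = 0.95).

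**Figure D3:**
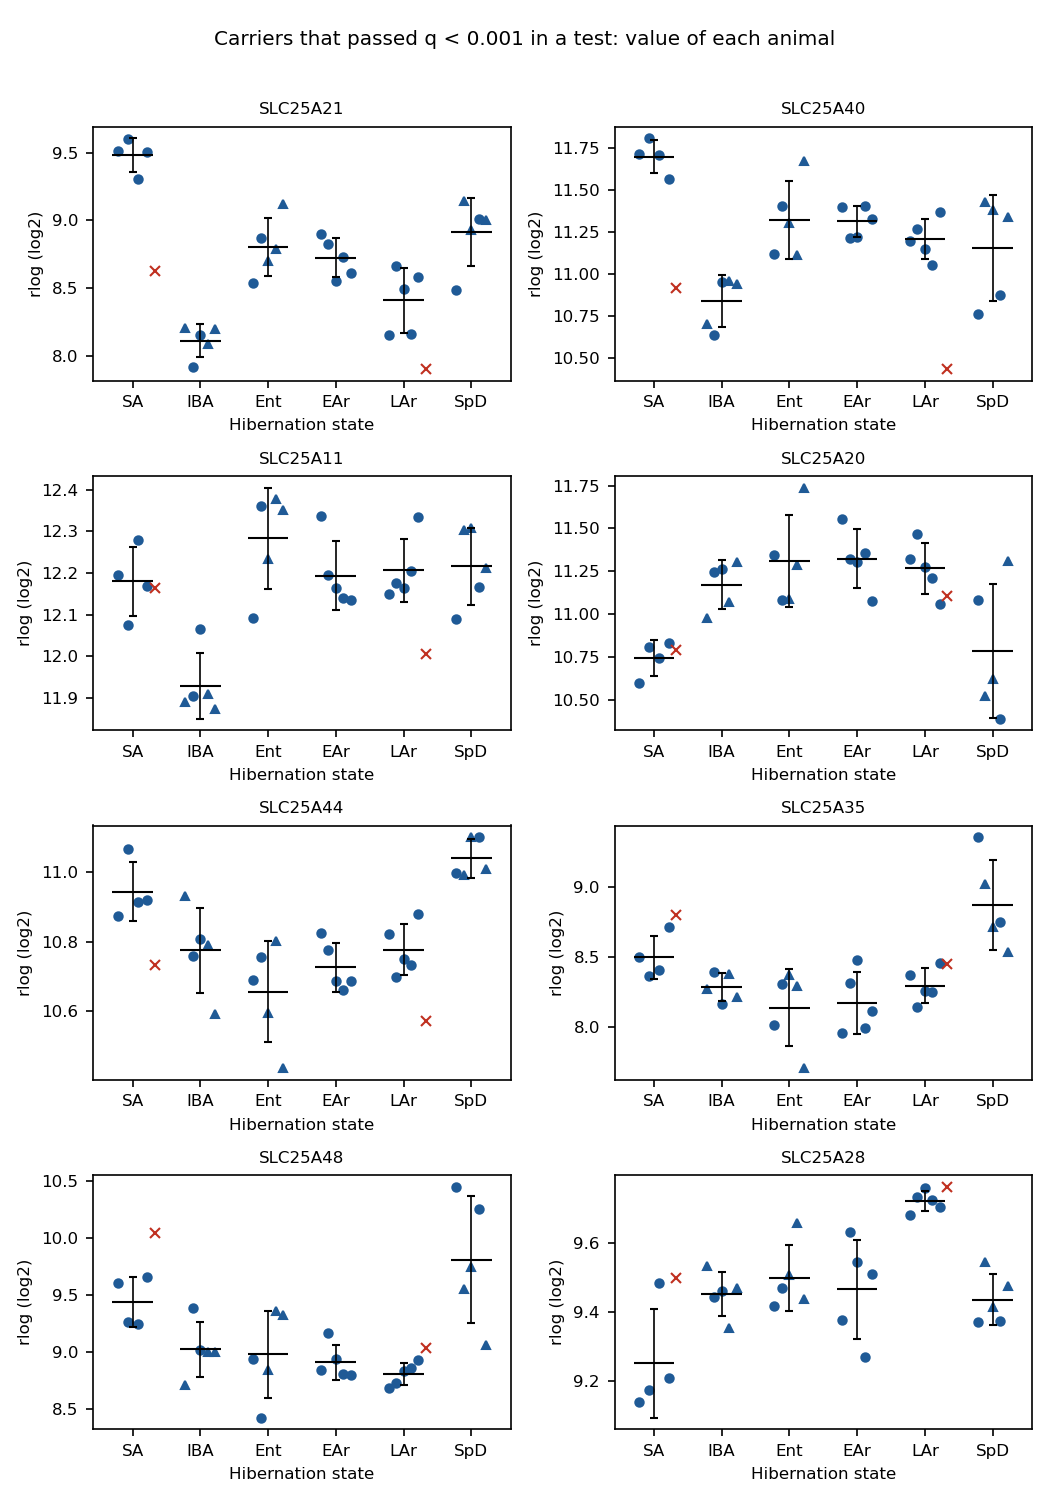
Each panel is a carrier that was DE in some test, with the rlog value (log2) of each animal by state. Triangles are experiment 1, circles experiment 2, red crosses K113 (LAr) and K137 (SA), and black bars the mean and SD of the other animals. SLC25A21 and SLC25A40 are lowest in IBA and highest in SA, SLC25A20 is high in the 4 hibernation states, and SLC25A28 is highest in LAr.

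Among the carriers of amino acids and related amines, SLC25A44 and SLC25A48 were the 2 of 6 that were DE by season, both lower in hibernation (5.29% of all genes were). SLC25A44 imports branched-chain amino acids and is known from their combustion in brown fat. It read 10.87, 10.91, 10.92, and 11.07 in SA, and 10.99, 10.997, 11.01, 11.10, and 11.10 in SpD. In IBA the values were 10.59, 10.76, 10.79, 10.81, and 10.93, and in Ent they were 10.44, 10.60, 10.69, 10.76, and 10.80. In EAr they were 10.66, 10.69, 10.69, 10.78, and 10.83, and in LAr they were 10.70, 10.73, 10.75, 10.82, and 10.88. Only 1 IBA animal and 1 LAr animal reached the lowest active animal. The seasonal difference was small but steady (-0.26 ± 0.04, 1.20-fold, limma q = 4.5e-05), and it was DE without any 1 animal. Its call across states (q = 0.00046) was lost without K2, K6, K84, or K9, with a highest q of 0.0015 without K6. SpD/IBA was 0.26 within experiment 1 and 0.27 within experiment 2.

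SLC25A48, linked to choline import, was lower in hibernation, and its SpD animals varied most. It read 9.24, 9.26, 9.61, and 9.65 in SA, and 9.06, 9.55, 9.74, 10.25, and 10.45 in SpD. In IBA the values were 8.71, 9.003, 9.003, 9.02, and 9.39, and in Ent they were 8.43, 8.85, 8.94, 9.32, and 9.36. In EAr they were 8.80, 8.80, 8.84, 8.94, and 9.17, and in LAr they were 8.69, 8.73, 8.83, 8.86, and 8.93. SpD was widely spread and overlapped with IBA, Ent, EAr, and SA, and the 5 LAr animals lay below all 9 active animals. The seasonal difference was -0.70 ± 0.12 (1.62-fold, limma q = 0.00011) and stayed DE without any 1 animal, whereas the call across states (q = 0.00094) was lost without any 1 of 25 animals, with a highest q of 0.0055 without K84, and held without K167, K5, K8, or K9.

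SLC25A15, the ornithine/citrulline carrier of the urea cycle, was lower in IBA than in SA by 1.01 (-1.01 ± 0.22, 2.02-fold, limma q = 0.0025), which is not DE at q < 0.001. Its state means in SA and IBA themselves differed by 0.88, less than the fitted difference. It lay between 11.27 and 11.71 in SA and between 10.08 and 10.92 in IBA, with no overlap (as in 18.8% of all genes). In the other states it ran from 10.53 to 11.52 (Ent), from 11.02 to 11.45 (EAr), from 10.78 to 11.26 (LAr), and from 10.37 to 11.56 (SpD). SLC25A29 (basic amino acids), SLC25A38 (glycine), and SLC25A45 (methylated amino acids) passed q < 0.05 in no test, and the state means of SLC25A45 ran from 9.03 in SpD to 9.76 in EAr. The low SpD mean of SLC25A45 rests on K130 at 7.59, without which it was 9.39, close to the IBA mean of 9.41.

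The ADP/ATP and phosphate carriers were not DE in any test. SLC25A5, an ADP/ATP carrier, had the lowest F test q of this group (0.023), which rose above 0.05 without K104, K139, K140 (q = 0.066), or K141. It ran from 13.97 to 14.31 in SA and from 13.50 to 13.87 in IBA, without overlap (as in 18.8% of all genes). IBA/SA was -0.56 ± 0.13 (limma q = 0.0042). In Ent it ran from 13.83 to 14.22, in EAr from 13.66 to 14.14, in LAr from 13.70 to 14.10, and in SpD from 13.71 to 14.16. SLC25A3, the phosphate carrier, was lower in IBA than in SA (-0.28 ± 0.08, q = 0.018), Ent (Ent/IBA 0.23 ± 0.07, q = 0.037), and SpD (SpD/IBA 0.24 ± 0.07, q = 0.030). Ent/IBA was lost without K1 (0.20, q = 0.11), K104, K167, K2, K5, K7, or K8, and SpD/IBA without K1, K130, K3 (0.20, q = 0.098), or K7. The ADP/ATP carriers SLC25A4 and SLC25A6 had SpD means of 12.33 and 15.26 and passed q < 0.05 in SpD/IBA (SLC25A4, 0.39 ± 0.12, q = 0.037) and in SA/SpD (SLC25A6, -0.40 ± 0.12, q = 0.033). Both rest on K130, without which SpD/IBA of SLC25A4 was 0.19 (q = 0.088) with an SpD mean of 12.16, beside 12.17 in Ent, and SA/SpD of SLC25A6 was -0.21 (q = 0.28). The first was also lost without K104, K3, K4, or K7 and the second without K138, K139, or K140. The ATP-Mg/phosphate carrier SLC25A24 was higher in IBA than in LAr (0.45 ± 0.15, q = 0.041), a call lost without any 1 of 13 animals (0.37, q = 0.16 without K104), and SLC25A23 and SLC25A25 passed q < 0.05 in no test.

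The iron carriers, or mitoferrins, supply iron for heme and iron-sulfur clusters. SLC25A28 (mitoferrin-2) read 9.68, 9.70, 9.72, 9.73, and 9.76 in LAr, and 9.14, 9.18, 9.21, and 9.48 in SA. In IBA the values were 9.35, 9.44, 9.46, 9.47, and 9.53, and in Ent they were 9.42, 9.44, 9.47, 9.51, and 9.65. In EAr they were 9.27, 9.38, 9.51, 9.54, and 9.63, and in SpD they were 9.37, 9.37, 9.41, 9.47, and 9.54. All 6 LAr animals, K113 included at 9.76, lay above the other 25 animals, whose highest value was 9.65. This separation was noticed after the values were seen and was not tested, and of all genes 0.148% had LAr wholly above or wholly below the other animals.

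SLC25A28 was DE across states (limma q = 0.00067), though the call was lost without any 1 of 14 animals (K104, K109, K111, K112, K115, K116, K138, K139, K141, K165, K2, K6, K7, or K84), with a highest q of 0.0025 without K139. IBA/LAr was -0.31 ± 0.08 (q = 0.0076), LAr/EAr was 0.25 ± 0.07 (q = 0.14), and the seasonal difference was 0.19 ± 0.04 (q = 0.0015). SLC25A37 (mitoferrin-1) was higher by season (0.18 ± 0.07, q = 0.044), which was lost without any 1 of 14 animals (0.15, q = 0.12 without K139), and its highest state mean was 9.68 in EAr.

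Of the 10 carriers of cofactors and nucleotides, none was DE, and 3 passed q < 0.05 across states (46.1% of all genes did). SLC25A36, a pyrimidine nucleotide carrier, was higher by season (0.25 ± 0.07, limma q = 0.0076) and ran from 11.41 to 11.65 in LAr and from 10.82 to 11.48 in SpD. Its values ran from 10.83 to 11.57 in SA, from 11.14 to 11.46 in IBA, from 11.25 to 11.61 in Ent, and from 11.36 to 11.61 in EAr, so that neighboring states overlapped throughout. SLC25A33, also a pyrimidine nucleotide carrier, had the highest F test q of the family (0.72), and ran from 9.79 to 10.18 in IBA and from 9.68 to 10.10 in SA. In Ent it ran from 9.79 to 10.29, in EAr from 9.67 to 10.50, in LAr from 9.92 to 10.24, and in SpD from 9.84 to 10.55. SLC25A26, the carrier of S-adenosylmethionine, was the next highest (q = 0.66), with state means between 8.90 and 9.04. Its values ran from 8.77 to 9.03 in SA, from 8.70 to 9.14 in IBA, from 8.92 to 9.43 in Ent, from 8.88 to 8.97 in EAr, from 8.80 to 9.02 in LAr, and from 8.77 to 9.10 in SpD.

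The folate carrier SLC25A32 was lower by season (-0.18 ± 0.05, limma q = 0.0067) and SLC25A16, tied to coenzyme A, was higher (0.16 ± 0.06, q = 0.044), the latter lost without any 1 of 19 animals (0.14, q = 0.096 without K84). SLC25A51, the NAD carrier, was lower in IBA than in SA (-0.43 ± 0.14, q = 0.030), though not without K104 (q = 0.073), K138, or K140, and its second, scarcer entry in the table differed by -0.31 (q = 0.029). SLC25A17 (a peroxisomal cofactor carrier), SLC25A42, and SLC25A52 passed q < 0.05 in no test. Of the carriers named for their likeness to uncoupling proteins, SLC25A14 was higher in IBA than in LAr (0.30 ± 0.09, q = 0.019, but 0.27 and q = 0.077 without K104) and SLC25A30 passed q < 0.05 in no test.

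The remaining carriers are SLC25A35 and SLC25A34, whose substrates are not settled, and SLC25A46, an outer membrane protein of mitochondrial fission and cristae. SLC25A35 read 8.36, 8.41, 8.50, and 8.71 in SA, and 8.53, 8.71, 8.75, 9.01, and 9.35 in SpD. In IBA the values were 8.16, 8.21, 8.27, 8.37, and 8.39, and in Ent they were 7.71, 8.02, 8.29, 8.31, and 8.37. In EAr they were 7.95, 7.99, 8.12, 8.31, and 8.48, and in LAr they were 8.14, 8.25, 8.25, 8.37, and 8.46. Every SpD animal lay above every hibernation animal, and SA overlapped with all 4 hibernation groups.

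SLC25A35 was lower in hibernation by 0.46 (-0.46 ± 0.08, 1.38-fold, limma q = 0.00020), a call that held without any 1 animal. Its call across states (q = 0.00078) was lost without any 1 of 22 animals, with a highest q of 0.0049 without K130, and held without K141, K156, K157, K171, K2, K5, or K9. SpD/IBA was 0.59 ± 0.13 (q = 0.0052), at 0.46 within experiment 1 and 0.77 within experiment 2. SLC25A46 was higher in SA than in SpD (0.27 ± 0.08, q = 0.043), which was lost without any 1 of 12 animals (0.26, q = 0.15 without K130), and SLC25A34 passed q < 0.05 in no test.

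Markers of kidney regions moved with some of these results. The mean rlog of 12 proximal tubule markers was 15.30 ± 0.12 (SD, n = 4) in SA, with a range of 15.19 to 15.46, and 14.48 ± 0.38 (n = 5) in IBA, with a range of 14.01 to 14.86. It was 14.76 ± 0.33 in Ent, 14.96 ± 0.19 in EAr, 14.86 ± 0.14 in LAr, and 14.71 ± 0.83 in SpD (n = 5 each), and all 12 markers were present in the table. In IBA/SA, 8 of the 12 were lower at q < 0.05, with a median difference of -0.89 over the 12, the pair in which SLC25A21, SLC25A40, SLC25A15, and SLC25A5 were lower. The part of this shift in the IBA/SA differences of the carriers was not tested. In Ent/IBA and SpD/IBA, where SLC25A21 was also DE, 0 of the 12 markers passed q < 0.05 by limma (0 and 2 had an unadjusted p under 0.05), with median differences of 0.31 and 0.11. In SpD the list mean was 13.34 in K130 and 14.50, 15.17, 15.24, and 15.30 in the other animals. K130 thus lowers SpD in both SpD/IBA and SA/SpD, and marker differences without K130 are not given here. In SA/SpD, where SLC25A21 and SLC25A40 passed q < 0.05, 3 of the 12 were higher at q < 0.05 and 8 had an unadjusted p under 0.05, with a median of 0.79. In IBA/LAr, where both carriers again passed q < 0.05 (SLC25A21 not without K104, K111, or K116), 1 was lower at q < 0.05 and 4 had an unadjusted p under 0.05, with a median of -0.60. By season 3 of the 12 were lower, with a median of -0.14.

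The list mean was lowest in the SpD animal K130, at 13.34, beside 13.96 in K113 and 14.23 in K137. SLC14A2, the urea transporter of the inner medulla, was at 12.99 in K130, 12.87 in K113, and 13.51 in K137. Over the 29 animals it averaged 10.43 ± 1.91 in SpD and 8.77 ± 1.82 in SA, and 6.52 ± 0.25 in LAr, 9.12 ± 2.07 in IBA, 8.73 ± 1.35 in Ent, and 8.89 ± 1.91 in EAr. The mean of the thick limb markers was also highest in SpD (15.75 ± 0.54), as was that of principal cell markers (14.09 ± 0.23). SLC25A48 and SLC25A35 read highest of all animals in K130, and without K130 the seasonal calls of the family stayed at 5, whereas those across states were 4. The seasonal differences without K130 were -0.61 for SLC25A48 (limma q = 0.00022) and -0.41 for SLC25A35 (q = 0.00050). By season, both endothelial markers, 1 of 2 thick limb, 1 of 2 principal cell, and 1 of 2 intercalated cell markers were lower in hibernation at q < 0.05, and the fibroblast, macrophage, distal convoluted tubule, and inner medulla markers did not pass it. The part of these markers in the results was not tested. None of the adrenal (5), adipose (4), or blood (3) markers sought was found by its symbol among the genes of the table.

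**Figure D4:**
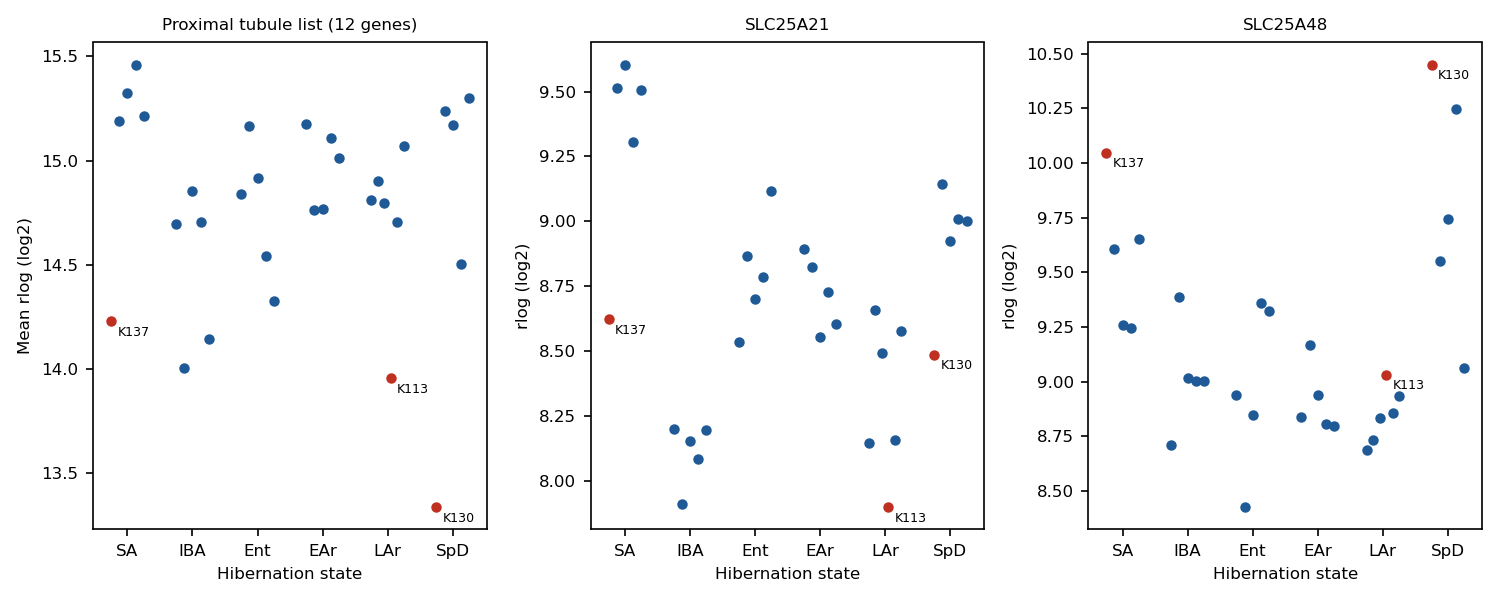
Each point is an animal by state, with the mean rlog (log2) of 12 proximal tubule markers at the left, SLC25A21 in the middle, and SLC25A48 at the right, and K113, K130, and K137 in red. K130 has the lowest tubule mean (13.34) and the highest SLC25A48 value (10.45), while every IBA value of SLC25A21 (7.91 to 8.20) lies below those of Ent and SpD.

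K113 and K137 lay outside the range of the other animals of their groups in most carriers, as they did in most genes. K113 lay below the other LAr animals in 21 of the 40 carriers, above them in 8, and among them in 11 (of all genes 37.2% were below and 35.6% above). K137 lay below the other SA animals in 22, above them in 9, and among them in 9 (29.5% of all genes below and 33.9% above). K130, which stayed in the tests, lay below the other SpD animals in 16 and above them in 13 (28.4% and 32.7% of all genes).

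Carriers that were below in all 3 animals numbered 12, or 30% of the 40, beside 13.3% of all genes (SLC25A1, SLC25A10, SLC25A13, SLC25A15, SLC25A21, SLC25A23, SLC25A34, SLC25A39, SLC25A40, SLC25A42, SLC25A45, and SLC25A51). Those above in all 3 numbered 4, or 10%, beside 14% of all genes (SLC25A14, SLC25A24, SLC25A33, and SLC25A48). K137 read 8.62 for SLC25A21 and 10.92 for SLC25A40, both under the lowest other SA animal, and 10.05 for SLC25A48, above the highest. K113 read 7.90 for SLC25A21 and 10.43 for SLC25A40, the lowest of all 31 animals in both.

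Among 66 genes that act with the carriers, 63 were in the table (UCP1, UCP3, and MCUB were not analysed here), and 5 of the 63 (7.94%, beside 9.34% of all genes) were DE across states and 10 (15.9%, beside 9.73% of all genes) by season, with 8 of the 10 lower in hibernation. Of the 10 enzymes listed for their links to carried substrates, with GPD2 of the glycerol phosphate shuttle among them, 8 passed q < 0.05 by season (6 lower, 2 higher), beside 33.4% of all genes. In IBA/SA 7 did (6 lower, 1 higher), beside 22.9% of all genes. GLUD1, which turns glutamate into oxoglutarate, was lower by season (-0.44 ± 0.07, limma q = 5.7e-05) and in IBA/SA (-0.84 ± 0.13, q = 9.9e-05). The malate dehydrogenases, the enzymes on either side of SLC25A11, were lower by season as well (MDH1, -0.23 ± 0.04, q = 0.00032, and MDH2, -0.32 ± 0.06, q = 0.00047). The MDH1 call was lost without K140 (q = 0.0013) or K6 and the MDH2 call without K138, K139, K140 (q = 0.0020), K141, K3, or K6. OAT, which uses ornithine, was lower by season at -0.31 ± 0.06 (q = 0.00059), a call lost without any 1 of 10 animals (q = 0.0026 without K139).

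GPD2, the mitochondrial enzyme of the glycerol phosphate shuttle, was higher in hibernation (0.40 ± 0.05, limma q = 2.4e-06). Of the 24 other mitochondrial transporters measured, 9 passed q < 0.05 by season (2 higher, 7 lower), close to the 33.4% of all genes, and 10 did in IBA/SA (1 higher, 9 lower), beside 22.9% of all genes. SFXN1, the mitochondrial serine carrier, and its relative SFXN5 were lower in IBA than in SA (-0.77 ± 0.14, q = 0.00067, and -1.06 ± 0.20, q = 0.00077), calls lost without any 1 of 11 and of 22 animals (q = 0.0042 and q = 0.0060 without K104), while SFXN4 was higher by season (0.32 ± 0.05, q = 9.1e-05). ABCB10, a transporter of the inner membrane in heme synthesis, was lower by season (-0.41 ± 0.07, q = 0.00010). Of 10 genes listed for the import of carriers into the mitochondrion, 2 passed q < 0.05 by season, both lower (16.8% of all genes were). TIMM8A was the 1 of them that was DE (-0.43 ± 0.06, limma q = 2.9e-05).

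Of 8 genes often used to stand for the amount of mitochondria, 4 passed q < 0.05 by season (33.4% of all genes did), 3 lower and 1 higher, and the chaperonin HSPD1 was DE (-0.26 ± 0.05, limma q = 0.00022), though not without K139 (q = 0.0012). Of 8 regulators of mitochondrial genes, 3 passed q < 0.05 by season, all lower (16.8% of all genes were), and among them was PPARGC1A (-0.27 ± 0.07, q = 0.0067). UCP2, an SLC25 relative under another symbol, was higher by season (0.67 ± 0.15, q = 0.0015), which is not DE at q < 0.001.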

How the data were processed

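RNA-Seq values of 31 kidneys of 13-lined ground squirrels were analysed. According to the paper's methods and the submitters' processing notes, cutadapt was used by the authors for trimming and HISAT2 for taking out reads of the mitochondrial genome, after which they quantified transcripts of the HiC_Itri_2 annotation with Salmon, and summed them to genes. The deposited values are the authors' DESeq2 rlog values on the log2 scale, with the batch effect removed by limma. They ran from 4.11 to 19.79, with animal medians between 9.74 and 9.88. Counts and depths were not used here, so no counting error is given.

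limma 3.58.1 (R 4.3.3) was fitted to all 12863 genes of 29 animals with terms for state, sex, and experiment and a prior variance that follows intensity, and p was adjusted by Benjamini and Hochberg's method test by test. It stands in for the authors' DESeq2 test, which needs counts. Because SA, EAr, and LAr came from experiment 2 alone, fitted differences can depart from differences of state means. The p-values measure the spread between animals. The fit was tested on simulated data. Each value printed as ± after a difference is a standard error, and after a mean an SD.

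Members, roles, lists, and tests were chosen with earlier results of these data known. Every member is named but 1, and 1 carrier and 1 related gene are counted but not reported singly here; values by animal or by state were to go to the 12 carriers with the lowest F test p, any DE by season or pair, and the 3 with the highest, of which the 8 DE in some test are given animal by animal and the other 7 by the range in each state. Other related genes are named if DE or, for CPT1A, CPT2, UCP2, and PPARGC1A, after their values were seen. Of the 40 carriers, 39 were named by the authors' reference annotation and 38 matched a RefSeq symbol (mIctTri1.hap1). That build differs from HiC_Itri_2, and positions are left out. Alternatives were q < 0.05, all 31 animals, experiment 2 only, no term for experiment or sex, no trend, animal weights, a mean of at least 8, median centering, fits of the 2 groups compared, and each animal left out. Figures were drawn with matplotlib 3.10.9.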

Additional observations from a re-analysis of the deposited data

Results flagged for a closer look

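In 3 of 90 carrier and state groups examined (the 15 carriers described in each of the 6 states), 1 animal stood far from the others of its state by Dixon's ratio at its 95% critical value, and chance alone gives about 1 in 20 such groups. SLC25A11 was at 12.07 in the IBA animal K171, with the other IBA animals between 11.87 and 11.91. SLC25A5 was at 14.22 in the Ent animal K167, with the others between 13.83 and 13.92. SLC25A26 was at 9.43 in the Ent animal K8, with the others between 8.92 and 8.99.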

How the results depend on the processing

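The number of DE carriers depended mostly on the threshold. At q < 0.05 it was 19 across states, 14 by season, 5 in SA/SpD, 11 in IBA/SA, 5 in Ent/IBA, 9 in IBA/LAr, and 8 in SpD/IBA. With all 31 animals it was 1 in IBA/SA and 0 in Ent/IBA and SpD/IBA, and the cause was not tested, while the DE genes among all genes went from 405 to 49, from 96 to 22, and from 161 to 67. In experiment 2 alone, which has fewer animals, it was 1 in SA/SpD (100 of all genes) and 0 in Ent/IBA and SpD/IBA (0 of all genes in both). It was 1 in Ent/IBA without the term for experiment or without the trend. With animal weights it was 4 in Ent/IBA, 2 in IBA/LAr, and 2 in SpD/IBA, while among all genes it went from 96 to 871, from 184 to 723, and from 161 to 415. In fits of the 2 groups alone, with fewer animals, it was 0 in IBA/SA, Ent/IBA, and SpD/IBA (1, 0, and 0 of all genes). Leaving out each animal in turn gave 2 to 6 carriers across states, 5 to 6 by season, 2 to 3 in IBA/SA, 0 to 2 in Ent/IBA, 1 in SpD/IBA, and 0 in the other pairs. No difference of a carrier that was called changed its sign. Of the 16 calls of single carriers, 10 held with all 31 animals, 10 in experiment 2 alone, 14 without the term for experiment, 15 with animal weights, median centering, or no trend, and 16 without the term for sex or among genes with a mean of at least 8. The difference of SLC25A21 in IBA/SA was -1.38 without the term for experiment. The second entry of SLC25A51 was DE in no test. No paired analysis was possible because each library came from a different animal. Depth is unknown, rlog values shrink the differences of scarce carriers, and with 4 or 5 animals a state small differences can be missed.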
